A study of Mus musculus with 8 samples.

Results

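The proteasome is the barrel-shaped protease that cuts ubiquitin-tagged proteins into peptides. This account follows its genes through sorted mouse eosinophils. Members were chosen by symbol alone, with no measured value: protein-coding genes whose mouse symbol begins with Psma, Psmb, Psmc, Psmd, Psme, Psmf or Psmg followed by a digit. The rule gave 50 of the 54446 genes in the count tables. Of these, 49 had a count in at least 1 library and 45 passed the filter on low counts that left 11828 genes to be tested. The 20S core particle has 16 members, the immunoproteasome 5, the 19S regulatory particle 17, and 10 are chaperones, other activators or an inhibitor. The remaining 2 match by symbol and are no subunits: Psmc3ip, a meiotic recombination factor with 9 counts, all in Siglec-Fint/CD101- libraries, and Psme2b, a copy of Psme2 without any count. Besides these 2, Psma8, Psmb11 and Psmg3 were too low to be tested.

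RNA was read by CEL-Seq, which counts the 3' ends of transcripts, in 8 libraries of C57BL/6 mice. Resident eosinophils gave 4 libraries (replicates 3 to 6), and 2 subsets gave 2 each, named by the surface proteins Siglec-F and CD101: Siglec-Fint/CD101- (replicates 1 and 2) and SiglecFhi/CD101+ (replicates 1 and 2). The labels give no age, sex, allergen or other treatment and no animal for any library, so any treatment that went with a group cannot be told apart from it. Replicates may not be separate mice, and p-values then speak only of how far these libraries differ, technical spread included.

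Proteins enter the proteasome through the 19S particle, whose ATPases (Psmc genes) unfold them and whose non-ATPase subunits (Psmd genes) bind and remove ubiquitin. Cutting happens inside the 20S core, a stack of alpha rings (Psma genes) and beta rings (Psmb genes) in which Psmb5, Psmb6 and Psmb7 carry the active sites. Interferon-gamma replaces these by Psmb8, Psmb9 and Psmb10 and adds the 11S cap of Psme1 and Psme2; this immunoproteasome is abundant in blood cells and shapes the peptides shown on MHC class I.

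Several properties of the libraries touch every result. Resident libraries held 2137819 to 5296468 counts of nuclear genes and the 4 subset libraries 444902 to 552121, with 38.6 to 61.8% of counts from the mitochondrial genome in resident and 69.9 to 83.9% in subset libraries. Among defining eosinophil genes, Epx had no count in 7 libraries and Prg3 had none in all 8. Prg2 was at 4.95 to 15.9 CPM in resident and 0.73 and 1.86 CPM in Siglec-Fint/CD101- libraries. It reached 38.7 and 234.8 CPM in SiglecFhi/CD101+ libraries. Genes of the sorted surface proteins did not follow the labels throughout. Siglecf was at 13.2, 44.0, 4.28 and 19.4 CPM in resident libraries, at 0 in both labelled Siglec-Fint/CD101- and at 10.1 and 26.8 CPM in those labelled SiglecFhi/CD101+. Cd101 was at 4.21 to 33.5 CPM in resident libraries, 0 and 0.62 in those labelled Siglec-Fint/CD101-, and only 1.06 and 0.61 CPM in those labelled SiglecFhi/CD101+. Of 11 eosinophil markers, 7 or 8 were detected in resident libraries, 3 and 7 in the Siglec-Fint/CD101- pair and 7 and 6 in the SiglecFhi/CD101+ pair. Summed, these markers were at 188.2 to 455.1 CPM in resident, 163.6 and 295.5 in Siglec-Fint/CD101- and 149.0 and 450.1 CPM in SiglecFhi/CD101+ libraries. All groups below are those of the labels. Summed markers of lymphocytes were 39.5 to 97.0 CPM in resident and 147 to 245.5 CPM in subset libraries, and those of neutrophils 125.6 to 474 against 251.8 to 1521 CPM. These sums do not speak for every marker. Resident libraries detected 3 to 6 of 8 neutrophil markers, each Siglec-Fint/CD101- library 4 and each SiglecFhi/CD101+ library 3. Mpo, Elane and Camp had no count in any subset library, nor in some resident libraries. Of 8 lymphocyte markers, resident libraries detected 6 or 7. Replicates 1 and 2 detected 4 and 8 for Siglec-Fint/CD101-, 5 and 4 for SiglecFhi/CD101+. Lung epithelial markers reached 985 to 13420 CPM in resident, 4582 and 7775 in Siglec-Fint/CD101- and 4760 and 5156 CPM in SiglecFhi/CD101+ libraries. In the same order, summed macrophage markers were at 199.3 to 546.4, 676.9 and 214.2, and 148.4 and 190.9 CPM. Endothelial and fibroblast markers were at 152.4 to 972.0, 652.9 and 707.8, and 949.5 and 752.5 CPM. Dendritic cell markers were at 114.6 to 147.7, 159.2 and 124.8, and 137.8 and 43.9 CPM. Several of these sums equal or exceed that of the eosinophil markers. CPM are counts relative to library size, with each size scaled by TMM, which allows for library composition. The part of depth, mitochondrial share and other cell types in the results was not tested, and in bulk samples fewer cells of a type and less RNA per cell cannot be told apart.

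Sequence just upstream of 3 members that carry the results is shown first, from RefSeq on GRCm38.p6, on the gene's own strand and ending before any annotated exon. Psmb5 (chymotrypsin-like site) and Psmb6 (caspase-like site) are shown because one was nearly absent in SiglecFhi/CD101+ libraries while the other was not, and Psme3 (the nuclear activator PA28-gamma) because it was low in both subsets. Capitals mark matches to TGACNNNGC, the core of the antioxidant response element through which Nfe2l1 and Nfe2l2 act on proteasome genes, and to the CCAAT box.
Psmb5, chr14:54618023-54618245, minus strand: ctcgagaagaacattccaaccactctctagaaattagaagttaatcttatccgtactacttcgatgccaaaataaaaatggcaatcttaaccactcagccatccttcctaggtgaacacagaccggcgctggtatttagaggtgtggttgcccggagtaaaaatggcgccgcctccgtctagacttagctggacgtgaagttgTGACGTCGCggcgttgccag
Psmb6, chr11:70525107-70525356, plus strand: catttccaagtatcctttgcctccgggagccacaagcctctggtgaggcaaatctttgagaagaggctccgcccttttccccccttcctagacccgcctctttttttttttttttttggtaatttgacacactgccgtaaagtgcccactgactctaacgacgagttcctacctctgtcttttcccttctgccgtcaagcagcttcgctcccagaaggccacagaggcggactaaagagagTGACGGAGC
Psme3, chr11:101315963-101316212, plus strand: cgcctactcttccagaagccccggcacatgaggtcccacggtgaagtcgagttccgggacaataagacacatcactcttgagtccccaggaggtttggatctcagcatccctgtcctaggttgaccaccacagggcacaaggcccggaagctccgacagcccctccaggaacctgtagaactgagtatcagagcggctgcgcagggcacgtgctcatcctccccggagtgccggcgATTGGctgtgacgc
Psmb5 and Psmb6 both hold the TGACNNNGC core, and Psme3 a CCAAT box in reverse. Motifs were searched on both strands of 250 bases upstream of each start, where 42 of the 50 members matched the RefSeq table with 45 windows. The TGACNNNGC core was in 5 of these 45 (11.1%) and in 10.2% of all 32851 promoters. CCAAT was in 15 of the 45 windows (33.3%), 7 of them among the 13 of the core particle, and in 33.8% of all promoters. The interferon motif TTCNNNGAA was in 2 of the 45 windows (4.44%), those of Psmb8 and Psmg1, against 7.02% of all promoters, and the interferon core GAAANNGAA in 3 (6.67%), none of them an immunoproteasome gene, against 7.13%. TGACNNNGC, CCAAT, TTCNNNGAA and GAAANNGAA matches are letters found in these windows, not shown sites.

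Proteasome genes together took a similar share of nuclear-gene counts in every library, as the stacked bars of that share show. It was 0.428, 0.409, 0.502 and 0.431% in resident replicates 3 to 6, 0.526 and 0.576% in the Siglec-Fint/CD101- pair and 0.381 and 0.406% in the SiglecFhi/CD101+ pair. Both Siglec-Fint/CD101- values lay above all resident values. Both SiglecFhi/CD101+ values lay below them, by less than the resident range. The core took 40.2 to 41.7% of proteasome counts in resident libraries, 40.2 and 36.2% in the Siglec-Fint/CD101- pair and 26.8 and 49.5% in the SiglecFhi/CD101+ pair, which stood on either side of the other 6. The immunoproteasome took 14.96 to 20.9% in resident, 16.0 and 18.8% in the Siglec-Fint/CD101- pair and 20.7 and 14.95% in the SiglecFhi/CD101+ pair. The 19S particle took 31.5 to 37.4% in resident libraries, 42.3 and 42.7% in the Siglec-Fint/CD101- pair and 48.1 and 28.8% in the SiglecFhi/CD101+ pair. Both Siglec-Fint/CD101- libraries were above the resident range in their 19S share, while the SiglecFhi/CD101+ libraries were above and below it.

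**Figure D1:**
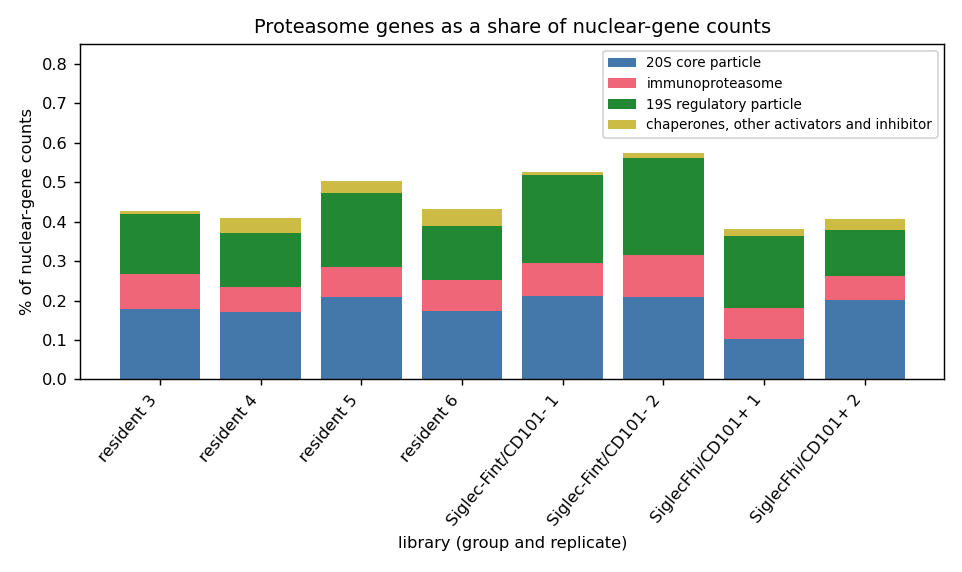
Counts of proteasome genes as a percentage of all nuclear-gene counts (y axis) in each of 8 libraries (x axis), stacked by part of the complex. Totals lie between 0.381% (SiglecFhi/CD101+ replicate 1) and 0.576% (Siglec-Fint/CD101- replicate 2).

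Single genes varied far more between the libraries of a subset than between resident libraries. The median fold between 2 libraries of a group, over the 45 tested members, was 1.37 to 1.61 for the resident pairs, 2.53 for the Siglec-Fint/CD101- pair and 2.79 for the SiglecFhi/CD101+ pair. Over all genes tested it was larger in each case, at 1.83 to 2.30, 3.06 and 3.45. Members over 10-fold apart numbered 0 to 3 of 45 in the resident pairs, 10 in Siglec-Fint/CD101- and 11 in SiglecFhi/CD101+. At most 1 tested member had no count in a resident library, while 7 and 6 had none in the Siglec-Fint/CD101- and 6 and 8 in the SiglecFhi/CD101+ libraries. Of these members 13.3 to 17.8% were thus at 0 in the subset libraries, where 30.2 to 43.8% of all genes tested were, against 3.22 to 12.6% of all genes in resident libraries. Psmc2, a 19S ATPase, illustrates the spread: it stood at 44.5, 62.9, 87.2 and 27.6 CPM in resident, 145.4 and 54.6 in Siglec-Fint/CD101- and 91.2 and 0.61 CPM in SiglecFhi/CD101+ libraries.

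**Figure D2:**
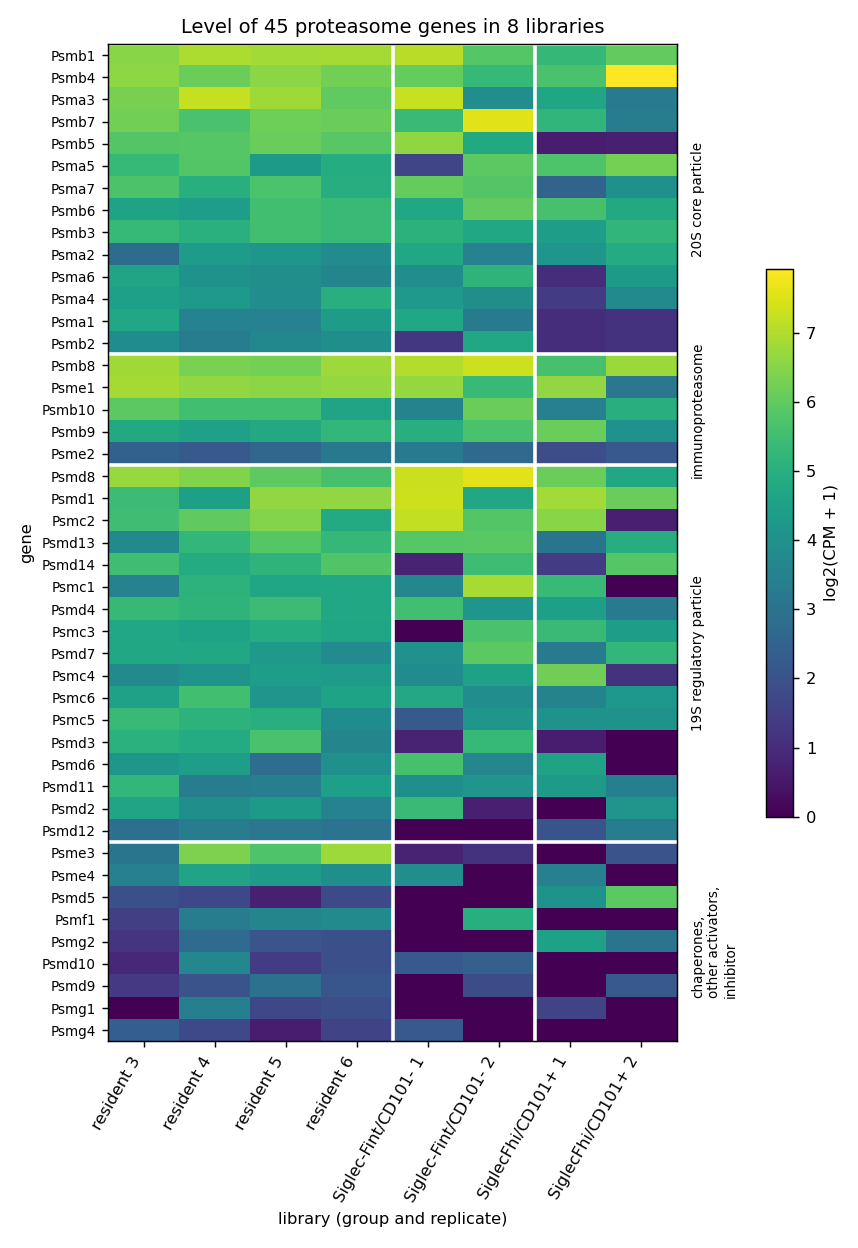
Heat map of log2(CPM + 1) for the 45 tested proteasome genes (rows, ordered by mean level within each part) in 8 libraries (columns). Most dark cells (genes at or near 0) stand in the subset columns and differ between libraries of the same group, some rows such as Psme3 also vary among the 4 resident columns, and Psmb5 and Psme3 are dark in both libraries of a subset.

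No member passed the test in any comparison. By the quasi-likelihood test of edgeR, adjusted after Benjamini and Hochberg over 11828 genes, 0 of 45 members were called at an adjusted p under 0.05 in SiglecFhi/CD101+ against resident (0.0254% of all genes tested were), in Siglec-Fint/CD101- against resident (0.0592%), in SiglecFhi/CD101+ against Siglec-Fint/CD101- (0.00845%), and in both subsets against resident (0.0254%). At an unadjusted p under 0.05, 7 members had a lower and 1 a higher level in SiglecFhi/CD101+ against resident, beside 13.1% and 3.65% of all genes. In Siglec-Fint/CD101- against resident 4 were lower and 0 higher, beside 13.8% and 1.9%. Between the subsets 9 were lower and 3 higher in SiglecFhi/CD101+, beside 7.96% and 9.98%, and in both subsets against resident 4 were lower and 0 higher, beside 21.0% and 1.91%. By DESeq2, which made 940, 737, 1309 and 1039 calls over all genes in these comparisons, 5, 2, 8 and 2 members passed, and by limma-voom none. Because the alternative tools differ this much, member results are given mainly as levels.

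Read without a test, 14 of 45 members had both SiglecFhi/CD101+ libraries below all 4 resident libraries and 2 had both above, where 27.4% and 6.78% of all genes tested did so. In Siglec-Fint/CD101- libraries 5 lay below and 4 above, beside 29.3% and 4.46%. Psme3 was the 1 member with all 4 subset libraries below the resident libraries, and none lay above, beside 12.0% and 0.702%. The median log2 fold change over tested members was -0.90 in SiglecFhi/CD101+ against resident, beside -0.72 over all genes tested. It was -0.10 in Siglec-Fint/CD101- against resident, beside -0.997 over all genes, and that small value changed sign to 0.30 with RLE scaling and 0.13 with upper-quartile scaling. Under RLE, upper-quartile and no scaling factors the members' median stayed 0.87 to 0.99 above that of all genes in that comparison. Scaling shifts both medians alike, so the steady gap is no separate support. In Siglec-Fint/CD101- replicates 1 and 2, 15.6 and 13.3% of members were at 0, against 43.8 and 37.4% of all genes tested. The part of this better coverage of members in the gap was not tested. Between the subsets the members' median was -0.88, beside 0.00 over all genes. Leaving out replicate 1 of Siglec-Fint/CD101- gave -0.27 and leaving out replicate 2 gave -0.43. These medians move with single libraries: in Siglec-Fint/CD101- against resident the members' median was 0.01 without resident replicate 3 and -0.45 without Siglec-Fint/CD101- replicate 1. The median of all genes fell to -3.15 and -2.12 in SiglecFhi/CD101+ against resident with replicate 1 or 2 of that subset left out. That of the members was then -0.98 and -1.04. The set of genes changed too: the low-count filter, applied anew, kept 14609 and 14727 genes, against 11828 with all 8 libraries. In Siglec-Fint/CD101- against resident the median of all genes fell to -3.29 and -4.42 in the same way, over 14968 and 14962 genes. The part of the added genes in these falls was not tested.

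**Figure D3:**
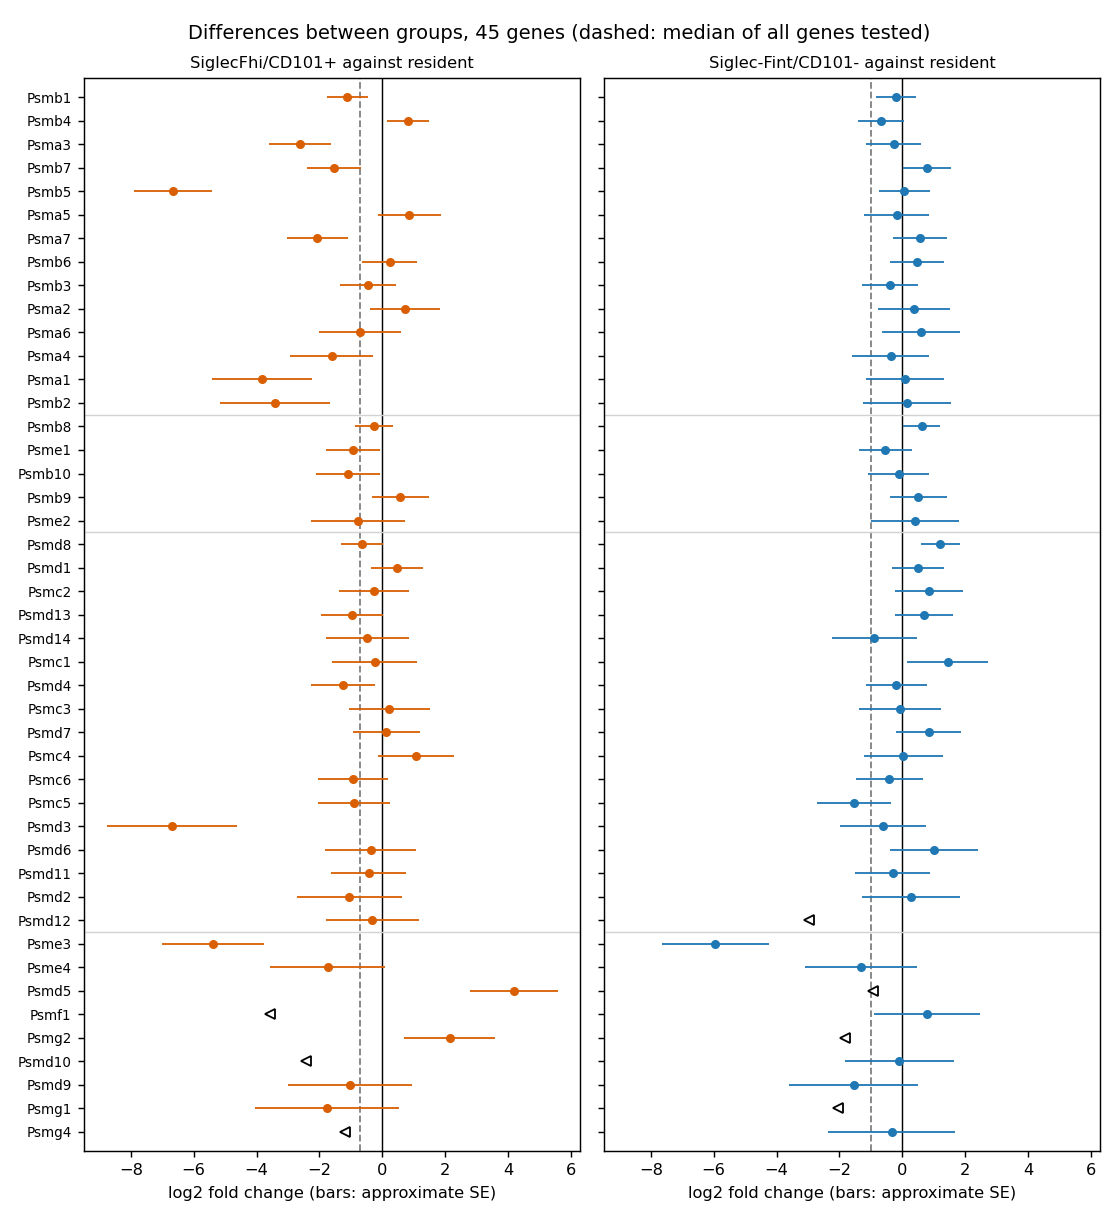
Log2 fold change of 45 tested proteasome genes (rows, by part) against resident libraries, for SiglecFhi/CD101+ (left) and Siglec-Fint/CD101- (right); filled points carry bars of approximate SE, open triangles mark genes without a count in the subset, drawn at a bound from 3 counts over the group. Dashed lines give the median of all genes tested, -0.72 and -0.997, and Psmb5 stands at -6.66 on the left and 0.06 on the right.

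Among the catalytic subunits of the core, Psmb5 was nearly absent from SiglecFhi/CD101+ libraries and present everywhere else. Psmb5 (ENSMUSG00000022193, chr14:54614119-54618022 on GRCm38, minus strand) makes the chymotrypsin-like site, the main target of proteasome inhibitor drugs. Its level was 55.1, 56.2, 69.0 and 57.1 CPM in resident replicates 3 to 6, 96.7 and 27.3 in Siglec-Fint/CD101- and 0.53 and 0.61 CPM in SiglecFhi/CD101+ libraries. The SiglecFhi/CD101+ values rest on 1 count in each library, far under all other values, while the Siglec-Fint/CD101- values lie on either side of the resident ones. With counts pooled over each group's libraries, the resident level was 106 times that of SiglecFhi/CD101+ (exact 95% counting interval 29.3 to 876). The Siglec-Fint/CD101- level was 105 times that of SiglecFhi/CD101+ (28.5 to 870). The log2 fold change of SiglecFhi/CD101+ against resident was -6.66 ± 1.25 (SE; edgeR quasi-likelihood adjusted p = 0.0822), and against Siglec-Fint/CD101- it was -6.72 ± 1.29 (edgeR adjusted p = 0.1055). The first passed the test in 4 of 18 alternatives, and its adjusted p ranged from 9.082e-05 with DESeq2 to 0.328 in edgeR without resident replicate 6. Besides DESeq2 it passed in edgeR without the filter (adjusted p = 0.00374) and with Siglec-Fint/CD101- replicate 1 or 2 left out (adjusted p = 0.0463 or 0.0421), where 131 and 133 of all genes passed. The second passed in 2 of 19, with an adjusted p from 9.965e-05 with DESeq2 to 0.752 in edgeR on those groups alone and 1.0 with the replicate block. In 3' tag data a near-identical copy can take reads. The processed pseudogene Gm3375 shares 65.0% of the 50-base windows in the last 400 bases of the Psmb5 transcript. Gm3375 had 3 counts in all 8 libraries together, none of them in a SiglecFhi/CD101+ library. Reads that match both may have been left uncounted, so these counts do not show whether Psmb5 reads were lost.

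Of the other 2 constitutive catalytic genes, Psmb6 did not share that pattern, and Psmb7 was lower in SiglecFhi/CD101+ libraries but not nearly absent. Psmb6 was at 23.4, 21.0, 44.9 and 40.4 CPM in resident, 25.5 and 63.95 in Siglec-Fint/CD101- and 48.8 and 27.4 CPM in SiglecFhi/CD101+ libraries, with all groups overlapping. Psmb7, the trypsin-like site, was at 75.4, 49.8, 71.4 and 69.4 CPM in resident, 40.7 and 188.8 in Siglec-Fint/CD101- and 36.6 and 9.15 CPM in SiglecFhi/CD101+ libraries. Both SiglecFhi/CD101+ values of Psmb7 were under all others. The log2 fold change was -1.54 ± 0.86 against resident (edgeR adjusted p = 0.36) and -2.33 ± 0.97 against Siglec-Fint/CD101- (edgeR adjusted p = 0.2558). The first was -2.94 without replicate 1 and -0.96 without replicate 2 of SiglecFhi/CD101+, and the second -3.69 without SiglecFhi/CD101+ replicate 1 and -0.92 without Siglec-Fint/CD101- replicate 2. The end of Psmb7 overlaps Nek6, which shares 86.9% of its windows, so reads of the pair may not be separable.

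The interferon-inducible catalytic genes were detected in all 8 libraries. Psmb8 (ENSMUSG00000024338, chr17:34197721-34201454, plus strand, within the MHC), which takes the place of Psmb5, was at 111.1, 80.4, 75.7 and 107.1 CPM in resident, 128.7 and 158.3 in Siglec-Fint/CD101- and 48.8 and 106.7 CPM in SiglecFhi/CD101+ libraries. Both Siglec-Fint/CD101- values lay above all others, and the SiglecFhi/CD101+ values overlapped the resident ones. Psmb9, which replaces Psmb6, was at 27.1, 22.2, 26.6 and 37.4 CPM in resident, 30.5 and 49.7 in Siglec-Fint/CD101- and 68.9 and 15.2 CPM in SiglecFhi/CD101+ libraries. Psmb10, which replaces Psmb7, was at 60.7, 45.4, 45.2 and 24.0 CPM in resident, 10.9 and 69.5 in Siglec-Fint/CD101- and 10.1 and 31.1 CPM in SiglecFhi/CD101+ libraries. For Psmb9 and Psmb10 all 3 groups overlapped. No immunoproteasome gene had an edgeR adjusted p under 0.5102 in any pairwise comparison.

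**Figure D4:**
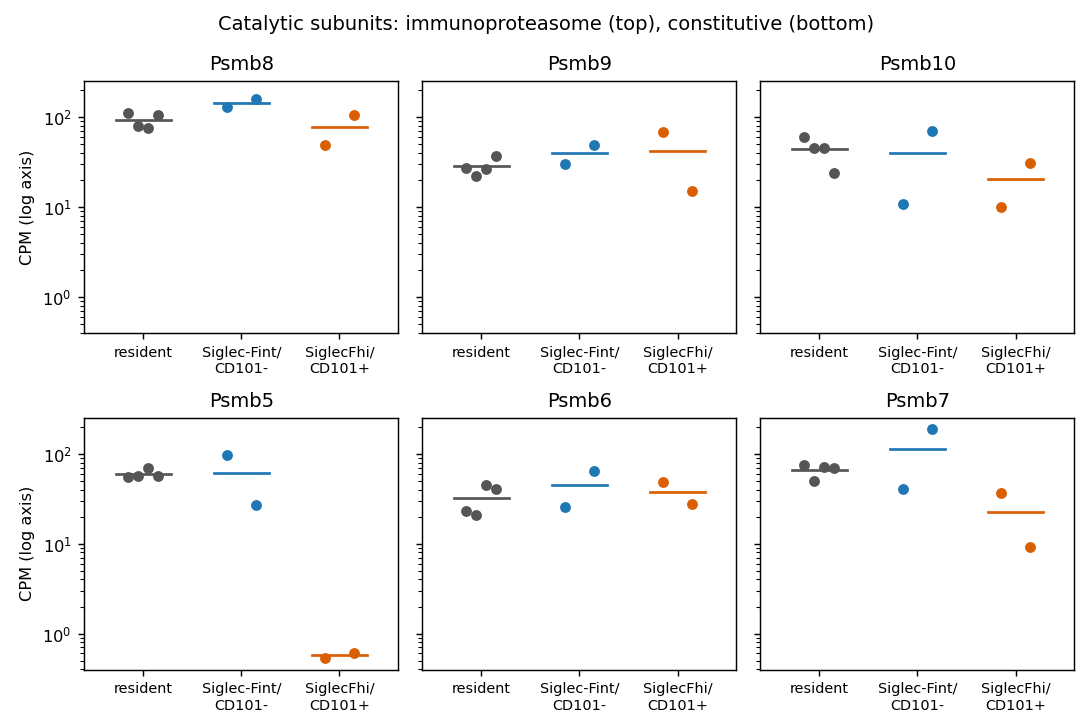
CPM on a log axis for the 3 immunoproteasome catalytic genes (top) and their constitutive counterparts (bottom) by group; points are libraries (4, 2 and 2) and lines are group means. Psmb5 is at 0.53 and 0.61 CPM in SiglecFhi/CD101+ libraries, while the other 5 genes stay above 9 CPM in every library.

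The balance between the alternative catalytic subunits was read as a share of counts within a library, which does not depend on scaling between libraries. Psmb8, Psmb9 and Psmb10 gave 56.4, 53.8, 44.3 and 50.3% of the counts of all 6 catalytic genes in resident libraries (mean 51.2% ± 5.24, SD, n = 4). In Siglec-Fint/CD101- libraries they gave 51.1 and 49.8% (50.4% ± 0.93, n = 2), inside the resident range. In SiglecFhi/CD101+ libraries they gave 59.8% (exact 95% Clopper-Pearson interval 54.8 to 64.6, 403 counts) and 80.5% (75.6 to 84.7, 312 counts), both above every resident value, with a mean of 70.1% ± 14.6 (n = 2). The lower of these intervals reaches below the resident maximum of 56.4%. Intervals and floors here cover counting error only. Without Psmb8 and Psmb5 the share of the other 4 genes was 35.9 to 48.8% in resident, 38.5 and 32.1% in the Siglec-Fint/CD101- pair and 48.1 and 55.9% in the SiglecFhi/CD101+ pair, so that 1 SiglecFhi/CD101+ library lay within the resident range and 1 above it.

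Within pairs, Psmb8 gave 66.8, 58.9, 52.3 and 65.2% of the counts of Psmb8 plus Psmb5 in resident libraries and 57.1 and 85.3% in Siglec-Fint/CD101- libraries. In SiglecFhi/CD101+ libraries it gave 98.9% (94.2 to 99.97, 93 counts) and 99.4% (96.9 to 99.99, 176 counts), above the 6 other libraries. Psmb9 gave 37.2 to 53.6% of its pair with Psmb6 in resident, 54.5 and 43.7% in the Siglec-Fint/CD101- pair and 58.6 and 35.7% in the SiglecFhi/CD101+ pair, which fell above and below the resident range. Psmb10 gave 25.7 to 47.7% of its pair with Psmb7 in resident libraries and 21.1 and 26.9% in Siglec-Fint/CD101- libraries. In SiglecFhi/CD101+ replicate 1 it gave 21.6%, and in replicate 2 77.3% (65.3 to 86.7, 66 counts). The 80.5% of SiglecFhi/CD101+ replicate 2 thus combined 2 pairs, Psmb8 with Psmb5 and Psmb10 with Psmb7, and the 59.8% of replicate 1 Psmb8 with Psmb5 and Psmb9 with Psmb6.

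**Figure D5:**
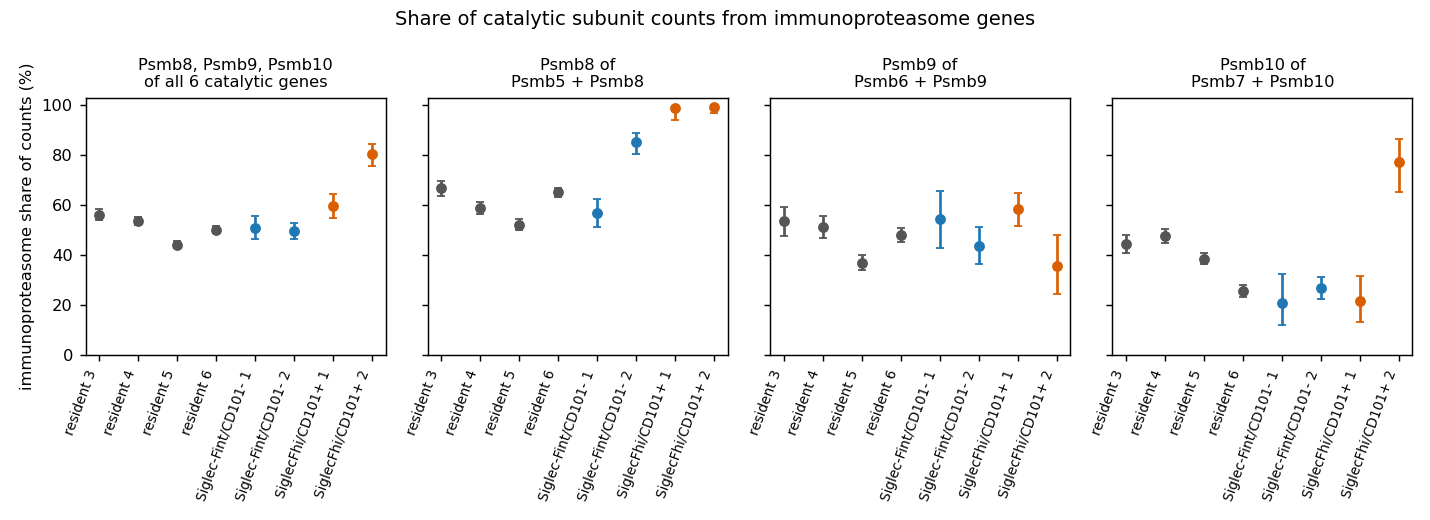
Share of catalytic subunit counts (y axis, %) from immunoproteasome genes in each library (x axis), for all 6 genes and for each pair; bars are exact 95% Clopper-Pearson intervals and colours are groups. In the pair of Psmb8 and Psmb5 both SiglecFhi/CD101+ libraries are at 98.9% or more, while the other pairs split the 2 libraries.

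The 11S cap genes were read at very different depths, with 5206 counts for Psme1 and 302 for Psme2 over all libraries. Psme1 was even in resident libraries at 116.6, 99.0, 92.9 and 101.0 CPM. It was at 101.1 and 39.7 CPM in Siglec-Fint/CD101- and 100.2 and 7.93 CPM in SiglecFhi/CD101+ libraries, so 1 library of each subset was at the resident level and the other under it. Its log2 fold change of SiglecFhi/CD101+ against resident, -0.92 ± 0.86 (edgeR adjusted p = 0.6024), ranged from -3.77 without replicate 1 to -0.13 without replicate 2 of that subset. Psme2 was at 3.62 to 8.25 CPM in resident, 8.73 and 5.59 in Siglec-Fint/CD101- and 2.65 and 3.66 CPM in SiglecFhi/CD101+ libraries. It shares 68.9% of its end windows with Psme2b, so reads that match both may have been left uncounted.

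Psme3, which encodes PA28-gamma, the nuclear relative of the 11S cap that works without ubiquitin, was low in all 4 subset libraries. Psme3 (ENSMUSG00000078652, chr11:101316213-101323537, plus strand) was at 7.52, 82.1, 53.0 and 108.5 CPM in resident replicates 3 to 6. It was at 0.73 and 1.24 CPM in Siglec-Fint/CD101- libraries (3 counts), while the SiglecFhi/CD101+ pair gave 0 and 3.05 CPM (5 counts). Resident replicate 3 was under the other resident libraries, but no subset value reached it. With counts pooled over each group's libraries, the resident level was 72.1 times that of Siglec-Fint/CD101- (exact 95% counting interval 24.6 to 350.0). It was 51.1 times that of SiglecFhi/CD101+ (21.9 to 157). Pooling gives deeper libraries more weight, and the intervals leave out the spread between libraries. The log2 fold change was -5.96 ± 1.71 in Siglec-Fint/CD101- (edgeR adjusted p = 0.2765), -5.38 ± 1.63 in SiglecFhi/CD101+ (edgeR adjusted p = 0.1794) and -5.67 ± 1.22 in both subsets against resident (edgeR adjusted p = 0.0902). The fitted value in SiglecFhi/CD101+ was -4.44 without replicate 1 and -11.9 without replicate 2 of that subset, the latter against a library without a count, so that it is no measure of size; for both subsets it was -8.95 when replicate 2 of SiglecFhi/CD101+ was left out. Of the 3 comparisons with resident libraries, which share those 4 libraries, all passed with DESeq2, at adjusted p-values of 0.00838, 0.00894 and 0.000336; over all alternatives these reached 0.5295, 0.3939 and 0.2144. Psme4, the other alternative cap, was at 9.86 to 24.1 CPM in resident libraries, 13.8 and 0 in Siglec-Fint/CD101- and 10.1 and 0 CPM in SiglecFhi/CD101+ libraries; it was named after its values were seen.

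In the alpha and non-catalytic beta rings, Psma3 had the smallest p of the alpha subunits in the pairwise comparisons. It was at 77.7, 150.4, 111.5 and 62.6 CPM in resident, 152.7 and 13.7 in Siglec-Fint/CD101- and 24.4 and 8.54 CPM in SiglecFhi/CD101+ libraries, with both SiglecFhi/CD101+ values under every resident value. The log2 fold change against resident was -2.61 ± 0.99 (edgeR adjusted p = 0.2365). Psmb2 was at 8.96 to 14.6 CPM in resident, 1.45 and 25.5 in Siglec-Fint/CD101- and 1.06 and 1.22 CPM in SiglecFhi/CD101+ libraries, the last on 4 counts. Psmb1 was at 90.2 to 123.7 CPM in resident, 135.2 and 55.9 in Siglec-Fint/CD101- and 37.6 and 64.6 CPM in SiglecFhi/CD101+ libraries, again with the latter under the resident range. Of 14 tested core genes, 8 had both SiglecFhi/CD101+ libraries below all resident libraries and none had both above, beside 27.4% and 6.78% of all genes tested. Their median log2 fold change was -1.32, beside -0.72 over all genes. In Siglec-Fint/CD101- libraries 1 core gene lay below and 1 above, beside 29.3% and 4.46%, and the median was 0.07, beside -0.997. The other 8 tested core genes ranged from 6.02 to 95.4 CPM in resident and from 1.06 to 243.3 CPM in subset libraries, and each had a count in all 8. Of these, named after their values were seen, Psma1 was at 10.4 to 25.2 CPM in resident and 1.06 and 1.22 CPM in SiglecFhi/CD101+ libraries, and Psmb4 reached its 243.3 CPM in SiglecFhi/CD101+ replicate 2 against 49.3 CPM in replicate 1. Psma8, a testis subunit, had 33 counts, 31 of them in resident replicate 4, and Psmb11, the thymic catalytic subunit, had 42 counts over 7 libraries.

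In the 19S particle, Psmd3 was lowest in SiglecFhi/CD101+ libraries and Psmd8 highest in Siglec-Fint/CD101- libraries. Psmd3, a scaffold subunit of the lid (ENSMUSG00000017221, chr11:98682554-98695979, plus strand), was at 32.6, 28.6, 49.2 and 11.5 CPM in resident, 0.73 and 39.1 in Siglec-Fint/CD101- and 0.53 and 0 CPM in SiglecFhi/CD101+ libraries. The SiglecFhi/CD101+ value rests on 1 count, and the resident level was 105 times it (exact 95% counting interval 18.9 to 4160). Its edgeR adjusted p was 0.1966 against resident. Psmd8, another lid subunit, was at 103.6, 84.98, 61.6 and 48.1 CPM in resident, 157 and 188.1 in Siglec-Fint/CD101- and 69.98 and 25.6 CPM in SiglecFhi/CD101+ libraries. Both Siglec-Fint/CD101- values lay above all others, with a log2 fold change of 1.21 ± 0.63 against resident (edgeR adjusted p = 0.3415), and SiglecFhi/CD101+ against Siglec-Fint/CD101- gave -1.85 ± 0.78 (edgeR adjusted p = 0.2571). The first was 0.34 without scaling factors, and the second -2.81 without SiglecFhi/CD101+ replicate 1.

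Psmc5, an ATPase of the base, was at 13.5 to 39.9 CPM in resident, 3.63 and 16.8 in Siglec-Fint/CD101- and 15.9 and 15.9 CPM in SiglecFhi/CD101+ libraries. Of 17 tested 19S genes, 2 (Psmd3 and Psmd4) had both SiglecFhi/CD101+ libraries below all resident libraries and 0 above, beside 27.4% and 6.78% of all genes tested. In Siglec-Fint/CD101- libraries 1 lay below (Psmd12) and 2 above (Psmd8 and Psmd13), beside 29.3% and 4.46%. Their median log2 fold changes were -0.42 and 0.03, beside -0.72 and -0.997 over all genes. The other 13 tested 19S genes had a count in every resident library, at 6.31 to 99.1 CPM, and ranged from 0 to 159.2 CPM in subset libraries. Among them Psmd12, chosen like Psmd4 and Psmd13 after its values were seen, was at 6.52 to 9.12 CPM in resident and 3.18 and 9.15 CPM in SiglecFhi/CD101+ libraries and had no count in Siglec-Fint/CD101- libraries. Taking 3 counts over that group, it was at least 7.8-fold lower there than in resident libraries.

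Among the chaperones that build the complex, Psmd5 ran opposite to most members in SiglecFhi/CD101+ libraries, though not in Siglec-Fint/CD101- libraries. Psmd5, a chaperone of the 19S base that is not part of the finished particle (ENSMUSG00000026869, chr2:34849734-34874968, minus strand), was at 2.84, 2.28, 0.63 and 2.39 CPM in resident libraries, had no count in either Siglec-Fint/CD101- library, and reached 15.4 and 59.8 CPM in the SiglecFhi/CD101+ pair. Both SiglecFhi/CD101+ values were above all others. The log2 fold change against resident was 4.20 ± 1.39 (edgeR adjusted p = 0.2142), from 2.81 to 4.79 when single libraries were left out. Against Siglec-Fint/CD101- the level was at least 35.8-fold higher, taking 3 counts over that group. Psmg2, chosen after its values were seen, was likewise without a count in Siglec-Fint/CD101- libraries and reached 22.3 and 7.32 CPM in SiglecFhi/CD101+ against 1.34 to 5.82 CPM in resident libraries. Psmf1, which encodes the inhibitor PI31, was at 1.84, 9.36, 11.4 and 12.8 CPM in resident, 0 and 30.4 in Siglec-Fint/CD101- and 0 in both SiglecFhi/CD101+ libraries. The other tested chaperones, Psmd9, Psmd10, Psmg1 and Psmg4, were at 0 to 11.8 CPM in every library. Taking 3 counts over the group, the level of Psmf1 in SiglecFhi/CD101+ was at least 11.9-fold lower than the resident one.

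Other genes of the pathway came from 4 lists of ubiquitin genes, proteasome receptors and deubiquitinases, assembly and transcription factors, and peptide transport with interferon control; of their 33 tested members edgeR's test called 0 in every comparison. At an unadjusted p under 0.05 there were 5 lower in SiglecFhi/CD101+ and 4 lower in Siglec-Fint/CD101- than in resident libraries, and none higher, where 13.1% and 13.8% of all genes tested were lower and 3.65% and 1.9% higher. DESeq2 called 3 in each, of 940 and 737 calls over all genes, and limma-voom 0. Ubb, a polyubiquitin gene, was at 420.7 ± 85.7 CPM in resident (SD, n = 4), 383.2 and 405.4 in Siglec-Fint/CD101- and 302.2 and 216.5 CPM in SiglecFhi/CD101+ libraries, both SiglecFhi/CD101+ values under every resident value. Among the 14 receptors, shuttles and deubiquitinases the median log2 fold change was -1.19 in SiglecFhi/CD101+ and -0.76 in Siglec-Fint/CD101- against resident. Vcp, the ATPase that extracts ubiquitinated proteins, was at 103.1 to 132.4 CPM in resident, 186.9 and 79.5 in Siglec-Fint/CD101- and 158 and 7.93 CPM in SiglecFhi/CD101+ libraries. Zfand5, a proteasome-binding zinc finger protein, was at 33.3 to 115.7 CPM in resident, 21.8 and 0.62 in Siglec-Fint/CD101- and 29.7 and 23.2 CPM in SiglecFhi/CD101+ libraries, so all subset values were under the resident range. Sem1, a small 19S lid subunit whose symbol falls outside the rule, had the smallest adjusted p of its list and was chosen after its values were seen. It was at 70.3, 51.4, 42.7 and 55.5 CPM in resident, 39.3 and 49.1 in Siglec-Fint/CD101- and 2.12 and 0.61 CPM in SiglecFhi/CD101+ libraries (5 counts), with an edgeR adjusted p of 0.1096 against resident. As for Psmb5, both SiglecFhi/CD101+ values lay under all others.

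Among the transcription factors that act on these genes, Nfe2l2 was at 97.2 to 273.7 CPM in resident, 55.3 and 42.8 in Siglec-Fint/CD101- and 27.6 and 39.0 CPM in SiglecFhi/CD101+ libraries, so all subset values lay under the resident range (edgeR adjusted p = 0.1002 for both subsets against resident). Ecpas, a proteasome-binding adaptor, was at 28.5 to 67.7 CPM in resident, 53.1 and 65.2 in Siglec-Fint/CD101- and 0.53 and 42.7 CPM in SiglecFhi/CD101+ libraries. The median of its list of 6 tested genes was -0.87 in SiglecFhi/CD101+ and -1.18 in Siglec-Fint/CD101- against resident on the log2 scale. Tapbp, which loads peptides onto MHC class I, was at 92.3 to 212.4 CPM in resident, 47.3 and 146.5 in Siglec-Fint/CD101- and 126.2 and 138.4 CPM in SiglecFhi/CD101+ libraries, with overlapping groups. Ifngr2, a chain of the interferon-gamma receptor, was at 28.6 to 88.2 CPM in resident, 43.6 and 44.7 in Siglec-Fint/CD101- and 48.2 and 9.15 CPM in SiglecFhi/CD101+ libraries. Nlrc5, the MHC class I transactivator, had 512 counts in resident libraries, at 3.79 to 17.1 CPM, and none in the 4 subset libraries (edgeR adjusted p = 0.1002 for both subsets against resident). Nlrc5 was named after its values were seen. Over the 8 tested genes of the list of peptide transport with interferon control the median log2 fold change was -0.86 in SiglecFhi/CD101+ and -0.57 in Siglec-Fint/CD101- against resident. All of these list medians stood beside -0.72 and -0.997 over all genes tested.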

How the data were processed

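RNA of sorted eosinophils was sequenced by CEL-Seq, per the labels. The authors deposited whole-number counts per Ensembl gene for each library, unnormalized; per the submitters' processing notes, HTSeq 0.6.1 (counting), TopHat2 2.1.0 and Bowtie2 2.2.6 (alignment) and cutadapt 1.10 were among the tools. Not given in the sources used here were genome build, annotation, strand setting and any collapsing of molecular identifiers. Counting intervals are too narrow if reads and not molecules were counted. Symbols and positions come from GENCODE M21 (GRCm38); 37 of 54446 identifiers did not match. Groups follow sample titles.

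The counts went into edgeR 4.0.16 under R 4.3.3 (TMM scaling, filterByExpr, robust quasi-likelihood, two-sided tests) with 1 mean per group fitted on all 8 libraries, adjusted by Benjamini-Hochberg over 11828 genes and called under 0.05. SE is the absolute log2 fold change over the square root of F. The code was run on data simulated with known folds, at the spread of these libraries and at a smaller one. What it recovered is not reported here, so the run does not say how readily a real difference would be called. Folds with a counting interval are ratios of counts pooled over each group's libraries, relative to their summed scaled sizes, so deeper libraries weigh more. Folds against a group without counts used 3 counts over that group. Alternatives were other scalings, filters, DESeq2 1.42.0, limma-voom (limma 3.58.1), thinned counts, a replicate block and leaving out libraries.

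Members and lists were chosen with earlier results of these data known. Named in every case were the 6 catalytic genes, Psme1, Psme2, and from each class the member with the highest mean CPM and that with the smallest p; from each list, the 2 highest. Paaf1 of the assembly list was not matched. Some genes of these lists are not reported here by name; the list counts and medians include them.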

Additional observations from a re-analysis of the deposited data

Results flagged for a closer look

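Of 28 measures examined in the 4 resident libraries (levels of named members, shares and the median level), 3 had 1 library whose gap to the nearest other was too large a part of the group's range by Dixon's 95% limit; chance gives about 1 in 20. Psmb5 was at 68.99 CPM in resident replicate 5, against 55.1 to 57.1 CPM in the other 3. The core's share of proteasome counts was 40.2% in resident replicate 6, against 41.6 to 41.7% in the others. The median CPM of tested members was 25.2 in resident replicate 3, against 24.0 to 24.2 in the others. In each case the spread is small beside that of the subset libraries. Groups of 2 libraries could not be examined in this way.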

How the results depend on the processing

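The count of members passing the test was 0 in edgeR with RLE, upper-quartile or nuclear-only scaling, with a filter of 20 counts in 2 libraries, with thinned counts, on the compared groups alone, and in limma-voom, in all comparisons run. It was not 0 under 3 settings that used all 8 libraries, and in some fits with 1 library left out. DESeq2 gave 5 in SiglecFhi/CD101+ against resident (Psma1, Psmb5, Psmd3, Psmd5, Psme3), 2 in Siglec-Fint/CD101- against resident (Psmd12, Psme3), 8 between the subsets (Psma1, Psma7, Psmb5, Psmd12, Psmd3, Psmd5, Psmf1, Psmg2) and 2 in both subsets against resident. Without the filter the counts were 2, 1, 1 and 2, and without scaling factors 3 in both subsets against resident (Psmb5, Psmd3, Psme3). Leaving out 1 library at a time gave 0 to 1 in SiglecFhi/CD101+ against resident (Psmb5, without either Siglec-Fint/CD101- library) and 0 in the other comparisons; a lone library left in a group is assumed to vary like the others. The cause was not tested.

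Over all genes the calls were 3, 7, 1 and 3; without the filter they were 370, 136, 85 and 201 with DESeq2 940, 737, 1309 and 1039, and without scaling factors 7, 3, 1 and 773 (15 higher, 758 lower). Without Siglec-Fint/CD101- replicate 1 or 2 the calls in SiglecFhi/CD101+ against resident rose to 131 and 133; under all other settings the counts were 0 to 9. Without Siglec-Fint/CD101- replicate 1 or 2 the filter, applied anew, kept 14968 or 14962 genes. The replicate block, possible between the subsets only, gave 0 members called and 4 genes in all, against 0 members and 0 genes on those groups alone. Differences between replicates 1 and 2 of the subsets correlated at 0.00656 over 11828 genes and at 0.0986 over 45 members. With 2 libraries per subset and many genes at 0, these values cannot decide whether replicate numbers pair libraries. The main fit did not pair them.

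In SiglecFhi/CD101+ against resident, the median log2 fold change was -0.45 over members and -0.26 over all genes with RLE, and -1.45 and -1.46 without scaling factors. All 15 log2 fold changes examined across the alternatives kept their direction. They were a chosen set, the smallest in size being -0.92 for Psme1 in SiglecFhi/CD101+ against resident. Smaller ones, such as -0.27 for Psmb8 in that comparison, were not examined, so this does not speak for all members. The SiglecFhi/CD101+ share of catalytic counts from the immunoproteasome (70.1%) was 52.0% without Psmb8 and Psmb5. The resident share (51.2%) was 37.4% per exonic length, 42.5% without Psmb8 and Psmb5 and 57.0% without Psmb10 and Psmb7. The Siglec-Fint/CD101- share (50.4%) was 37.1, 35.3 and 63.0% in the same order. Counts of 3' ends do not scale with transcript length, so the values per exonic length are no better measure of the share. Leaving out a library gave 49.5 to 53.5% in resident, 49.8 to 51.1% in Siglec-Fint/CD101- and 59.8 to 80.5% in SiglecFhi/CD101+ libraries. One count in a subset library is 0.53 to 0.73 CPM, and a count of 0 there allows a level of up to 3 counts (1.59 to 2.18 CPM).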
